A study of Mus musculus with 16 samples.

Results

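The type I interferon response genes described here are 42 genes chosen by name, from the receptor subunits Ifnar1 and Ifnar2 to the antiviral proteins whose genes interferon switches on. Of these, 41 have a row among the 13982 genes of the table, and Mx1 is not analysed here. All 41 reached 1 FPKM (fragments scaled by transcript length and library size) in at least 4 of the 16 libraries, the minimum for a test, and stand among 10846 tested genes. This minimum is part of the rule and leaned on the stroke libraries for Oasl1, which was below 1 FPKM in all 4 Sham libraries. Samd9l, Gbp2, Isg15, Stat2, Rsad2, Ifi207, Oasl2, Ifitm2 and Zbp1 also reached 1 FPKM in fewer than 4 Sham libraries. These and Oasl1 are among the genes called higher in MCAO against Sham below, so that count leans on the minimum, which held for all tested genes. Ifit1, Ifit3 and Ifi208, not called there, were alike in this. Ifi44 reached 1 FPKM in just 4 libraries. Of the 41, 23 were at or above 1 FPKM in all 16 libraries.

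RNA was sequenced from cells stained for CD45 and CD11b, sorted out of digested cortex of C57BL/6 mice and labelled as microglia, in 4 groups of 4 libraries. Sham mice had no vessel occlusion, and MCAO mice had the middle cerebral artery occluded, a model of ischemic stroke. Mice labelled MCAO+Ctrl-exos or MCAO+AS-exos also had the occlusion and received 150 µg of exosomes, small vesicles released by cells, into the tail vein every 3 days beginning with the surgery. The exosomes were taken from plasma of Apoe knockout mice given a western diet, fed for 12 weeks to induce atherosclerosis, or a normal diet, and the labels do not tie a diet to either code. The recipients are not described as Apoe knockouts, and Apoe read 12930 to 20499 FPKM in MCAO+Ctrl-exos and 12581.5 to 25267 in MCAO+AS-exos. In the groups without exosomes it read 81.8 to 204 FPKM (Sham) and 9252 to 13237 (MCAO). Age, sex, the time from surgery to sorting and whether each library is 1 mouse are not stated in the labels used here, so p-values measure the spread between libraries, which may be technical.

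Type I interferons, chiefly interferon alpha and beta, bind a receptor made of Ifnar1 and Ifnar2. The kinases Tyk2 and Jak1 on the receptor then pass the signal to transcription factors, Stat2 and Irf9 among them, which bind a DNA element called the interferon-stimulated response element, or ISRE, beside the genes they switch on. Irf7 is itself induced and makes further interferon. The products sense foreign nucleic acid, block viral entry, RNA and translation, or, like Usp18, shut the receptor down, and microglia are known to carry them at low levels at rest and to raise them in injury, infection and ageing.

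The ISRE was looked for in RefSeq promoter windows of 250 bases before to 50 after each transcript start in mouse build GRCm38.p6. A window was found for 32 of the 42 genes. The other 10 are Dhx58, Ifi204, Ifi27l2a, Ly6e, Mx1, Parp9, Parp14, Rtp4, Usp18 and Zbp1. The core GAAANNGAAA, read on both strands, was in 19 of the 32 (59.4%), beside 3.99% of all 27025 genes with a window. The GAS element TTCNNNGAA, which STAT dimers bind and which can share its letters GAA with an ISRE core, was in 9 of 32 (28.1%), beside 9.55% of all genes. A match is a description of these letters and does not show binding. The stretches below are shown because their genes carry the results: Isg15, Ifitm2, Ifitm3 and Ifi207 rose after stroke, Ifit3 and Oas1a did not pass the test, and Gbp7 fell. Each runs 5′ to 3′ along the strand of its gene, with the ISRE core in capitals, which reads TTTCNNTTTC where the core lies on the opposite strand.
Isg15: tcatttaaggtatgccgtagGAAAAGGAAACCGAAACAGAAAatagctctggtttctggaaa
Ifitm2: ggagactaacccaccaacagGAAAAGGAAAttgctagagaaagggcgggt
Ifitm3: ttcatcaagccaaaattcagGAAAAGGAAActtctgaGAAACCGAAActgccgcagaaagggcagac
Ifi207: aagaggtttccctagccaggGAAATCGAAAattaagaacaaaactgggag
Ifit3: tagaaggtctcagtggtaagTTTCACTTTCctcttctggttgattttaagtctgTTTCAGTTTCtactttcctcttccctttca
Oas1a: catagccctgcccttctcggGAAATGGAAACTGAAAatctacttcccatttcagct
Gbp7: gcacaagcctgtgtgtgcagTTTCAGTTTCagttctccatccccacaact

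In GRCm38.p6 the Isg15 stretch is chr4:156200855-156200916 on the minus strand and holds 3 overlapping cores, from 78 to 57 bases before the start. The Ifitm2 stretch, chr7:140955978-140956027, and the Ifitm3 stretch, chr7:141010696-141010762, both on the minus strand, share a core of the same letters, and in Ifitm3 it lies after the start. Ifi207 (chr1:173741821-173741870, minus strand) and Oas1a (chr5:120907510-120907565, minus strand) have their cores within 50 bases of the start, and Ifit3 (chr19:34583353-34583436, plus strand) has them at 156 to 113 bases before it. Gbp7 (chr3:142530263-142530312, plus strand) holds 1 core. Among genes with a window, the core was in 9 of 14 that rose in MCAO against Sham, in 2 of 5 that fell and in 8 of 13 that did not pass the test.

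**Figure D1:**
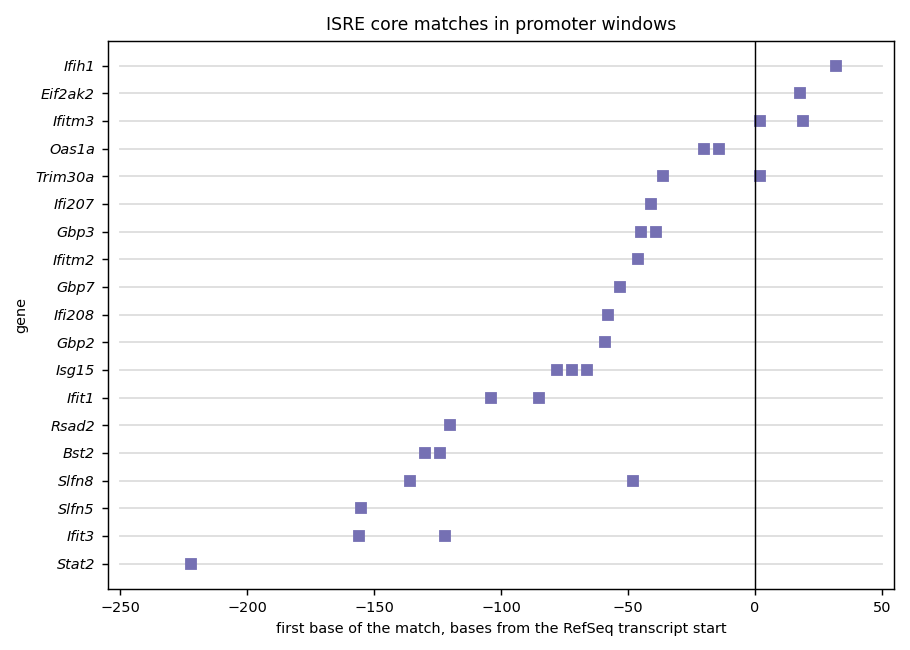
Position of each ISRE core match, in bases from the RefSeq transcript start (0, vertical line), for the 19 genes that hold one in their window of 250 bases before to 50 after the start (grey lines). Squares mark the first base of a match, and squares of Slfn8 and Trim30a include more than 1 transcript start. Most matches lie before the start, while those of Ifih1, Eif2ak2 and Ifitm3 and 1 of Trim30a lie after it.

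The values summed to 758283 to 983648 FPKM per library, with 8813 to 10003 genes at 1 FPKM or more. The files hold no counts, so sequencing depth and counting error are unknown. Markers of resting microglia fitted the label in Sham and were low after stroke: 10 of 10 were in the table, summing to 20889.5 to 22855 FPKM in Sham, 981 to 1800 in MCAO, 1173 to 1259 in MCAO+Ctrl-exos and 1133 to 1781 in MCAO+AS-exos. The 10 monocyte and macrophage markers, 5 of them below 1 FPKM in all Sham libraries, summed to 215 to 613 FPKM in Sham, 6064 to 10698 in MCAO, 7517 to 15583 in MCAO+Ctrl-exos and 6483 to 23996 in MCAO+AS-exos. Other sums also differed between Sham and the stroke libraries. Border macrophage markers (8 of 8 in the table) summed to 13.8 to 69.7 FPKM in Sham and 1931 to 5539 after stroke. Neutrophil markers (7 of 10) summed to 76.7 to 144 FPKM and 1619 to 9685, and conventional dendritic cell markers (6 of 7) to 4.75 to 5.89 FPKM and 44.5 to 169. The neutrophil difference was chiefly of S100a8 (0.83 to 3.91 and 1261 to 7116 FPKM) and S100a9 (0.26 to 1.44 and 275 to 2331), and Mmp9 was also higher. Csf3r (64.7 to 134 and 37.9 to 111 FPKM), Cxcr2 and Retnlg overlapped with Sham, and Ly6g was 0 in Sham and MCAO. Of the dendritic cell markers, Xcr1 (0.76 to 3.48 and 0.06 to 2.72 FPKM) and Zbtb46 overlapped with Sham. The sum of plasmacytoid dendritic cell markers (8 of 10) was lower after stroke, at 342 to 717 FPKM beside 2140.4 to 2597 in Sham. That fall was of Siglech, also in the list of resting microglia markers, at 1970 to 2334 FPKM in Sham and 0.44 to 7.38 after stroke. Bst2, also an interferon response gene, went the other way, from 47.3 to 156 FPKM in Sham to 250 to 551 after stroke. The other markers of that list had ranges that overlapped between Sham and the stroke libraries. The lower sum is therefore no measure of these cells. The part of these sums in the results was not tested. In bulk RNA, fewer cells of a type and less RNA per cell cannot be told apart.

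Sham replicate 3 stood apart from the other Sham libraries in these genes. It was the highest of the 4 in 34 of the 41 (82.9%, beside 20.9% of all tested genes) and the lowest in 0, and in 18 of the 41 it was also above every MCAO library (9.25% of all genes). Its difference from the mean of the other 3 had a median of 1.42 on the log2 scale over the 41 genes and 0.00 over all genes. Its monocyte and macrophage markers summed to 613 FPKM, beside 215 to 353 in the other Sham libraries, with Plac8 at 92.8 against 0.11 to 8.57 and Ms4a4c at 17.3 against 0.08 to 2.08. Lyz2, the largest part of that sum, was 498 FPKM against 206 to 340, and F13a1 was 0.36 against 0.05 to 0.20. The other markers of that list were not highest in this library: Ly6c2 was 0.31 FPKM, Ccr2 2.08, Fn1 0.08, Vcan 0, Chil3 1.3 and Ly6i 0.07. The border macrophage marker Pf4 was 52.9 FPKM, beside 1.17 to 3.16. Of the others in that list, Mrc1 (3.55 FPKM), Stab1 (11.9) and Cbr2 (0) were not highest in this library. Ms4a7 (0.80 against 0.16 to 0.73), Lyve1 (0.12 against 0 to 0.02) and Cd163 (0.02 against 0 to 0.01) were, all below 1 FPKM. Counts against Sham are therefore given with and without Sham replicate 3. MCAO+AS-exos replicate 4 also stood apart: it was the lowest of its group in 22 of the 41 (53.7%, beside 31.8% of all tested genes). It was the highest in 11 (26.8%, beside 48.1% of all tested genes), so it stood apart over all tested genes as well. Its monocyte and macrophage markers summed to 6483 FPKM against 21450.0 to 23996 in its 3 partners. That gap was mostly of Lyz2 (4693 FPKM against 17235 to 20052) and Chil3 (652 against 2948 to 4235). Ly6c2 (121 against 206 to 324), Ly6i (2.45 against 12.6 to 16.5) and Ms4a4c (89.9 against 131 to 147) were also lower in this library. Ccr2 (273 against 118 to 199), Fn1 (172 against 90.7 to 108) and Plac8 (315 against 75.2 to 213) were higher in it. F13a1 and Vcan lay within the range of its partners.

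**Figure D2:**
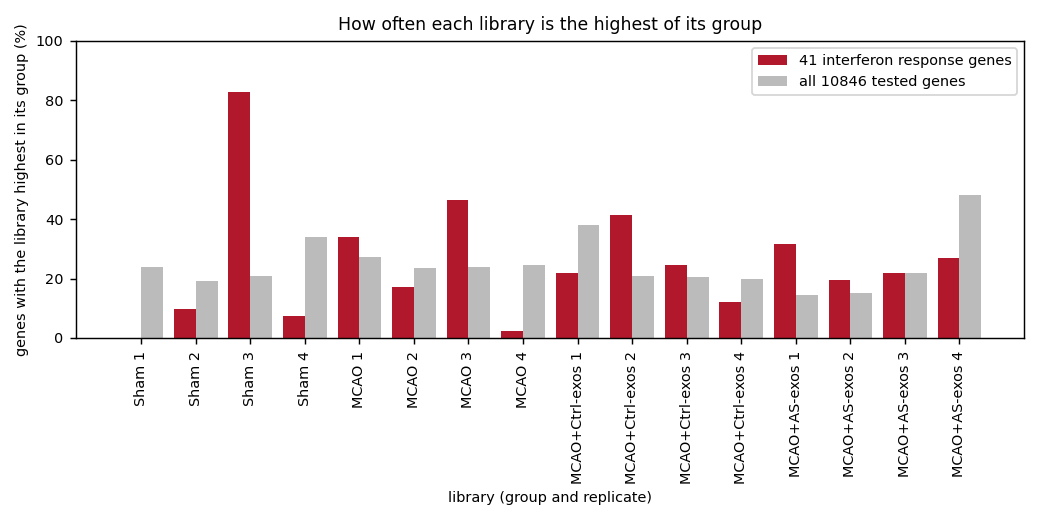
Share of genes, in percent, for which each library (x axis) is the highest of the 4 in its group, for the 41 interferon response genes (red) and all 10846 tested genes (grey). Sham replicate 3 leads its group in 82.9% of the interferon genes and 20.9% of all genes, and Sham replicate 1 leads in 0%.

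The comparison of MCAO with Sham asks how these genes stand in the sorted cells after stroke. Of the 41 genes, 16 rose (39.0%, beside 24.5% of all tested genes), 6 fell (14.6%, beside 14.8%) and the others did not pass the test. The risers led with Ifitm2, Ifi207, Ifitm3, Isg15, Oasl2 and Ifi204, and the genes that fell were Ifi35, Gbp7, Xaf1, Herc6, Slfn8 and Ly6e. Ifit1, Ifit2, Ifit3, Usp18 and Rtp4 were among the genes that did not pass. The median log2 fold change was 0.44 over the 41 genes and 0.25 over all tested genes. Fold changes here are differences of mean log2(FPKM + 1) from limma, which understate changes of low genes, with p-values adjusted over the 10846 genes and a threshold of 0.05. Values of the 4 libraries of a group are given in the order of replicates 1 to 4.

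Without Sham replicate 3, 19 of the 41 rose (22.3% of all tested genes did) and 3 fell (12.9% of all), and 19 of the 22 genes called with all libraries remained. Ifi27l2a, Irf7 and Oas1a joined the risers, Herc6, Ly6e and Slfn8 no longer passed, and the median log2 fold change over the 41 genes became 1.10, beside 0.26 over all tested genes. That library was singled out for its high values in these same genes. Leaving it out therefore moves most of their fold changes against Sham upward by construction, here and in the exosome groups.

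**Figure D3:**
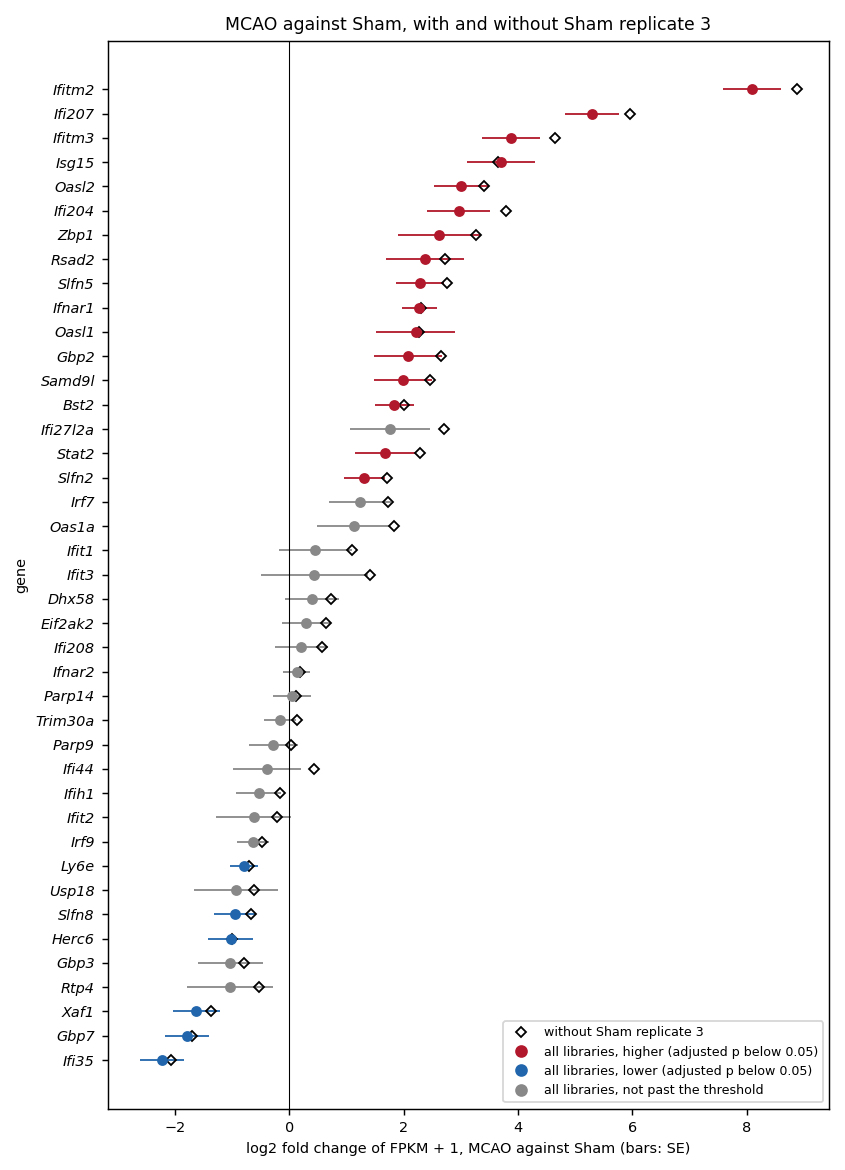
Log2 fold change of FPKM + 1 in MCAO against Sham for each of the 41 genes, from all libraries (filled circles with SE bars; red rose, blue fell, grey did not pass) and without Sham replicate 3 (open diamonds). Ifitm2 leads at 8.09 and Ifi35 is lowest at -2.22, and most diamonds lie to the right of their circle.

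At the receptor, both subunits were expressed in all libraries and Ifnar1 rose. Ifnar1 read 6.90, 4.02, 7.52 and 11.4 FPKM in Sham and 38.6, 40.8, 40.7 and 32.4 FPKM in MCAO. Every MCAO library was above every Sham library, and the log2 fold change was 2.28 ± 0.30 (SE; adjusted p = 5.30e-06). In the exosome groups it read 44.6, 29.8, 25.1 and 22.4 FPKM (MCAO+Ctrl-exos) and 23.6, 25.97, 30.4 and 25.4 FPKM (MCAO+AS-exos), again above all Sham libraries. Ifnar2, the subunit with the longer signalling tail, was higher in level than Ifnar1 in every library. It read 128, 209.6, 202 and 180.0 FPKM in Sham and 218, 204, 184 and 170.2 FPKM in MCAO, groups that overlapped, with a log2 fold change of 0.13 ± 0.24 (SE; adjusted p = 0.696), and -0.05 with quantile normalization. With 157, 201, 179.8 and 98.6 FPKM in MCAO+Ctrl-exos and 207, 184, 182 and 145 FPKM in MCAO+AS-exos, it was among the steadiest of the 41 genes.

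Of the factors that carry the signal to DNA, Stat2 rose, and Irf9 and Irf7 did not pass. Stat2 was 0.24, 0.83, 10.8 and 3.13 FPKM in Sham and 9.17, 5.63, 13.8 and 10.4 FPKM in MCAO. Sham replicate 3 lay among the MCAO values and the other Sham libraries lay below them. Its log2 fold change was 1.67 ± 0.53 (SE; adjusted p = 0.0166), 2.29 ± 0.44 (adjusted p = 0.00051) without Sham replicate 3, and short of the threshold without Sham replicate 1 (1.21, adjusted p = 0.068) or Sham replicate 2 (1.40, adjusted p = 0.0577). Irf9, the DNA-binding partner of Stat2, was 28.9, 37.9, 54.4 and 37.6 FPKM in Sham and 34.8, 23.6, 19.4 and 22.8 FPKM in MCAO. Its groups overlapped and it did not pass, at -0.63 ± 0.28 (SE; adjusted p = 0.0823). It passed as lower without Sham replicate 1 (-0.77, adjusted p = 0.0496), without MCAO replicate 1 (-0.80, adjusted p = 0.0456) and with quantile normalization (-0.85, adjusted p = 0.023). Irf7, which amplifies the response, was 1.08, 11.8, 24.4 and 9.47 FPKM in Sham and 43.2, 18.6, 16.99 and 13.4 FPKM in MCAO, with Sham replicate 3 above all MCAO libraries but replicate 1. It reached 1.24 ± 0.54 (SE; adjusted p = 0.0758), and 1.74 ± 0.52 (adjusted p = 0.0142) without Sham replicate 3.

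**Figure D4:**
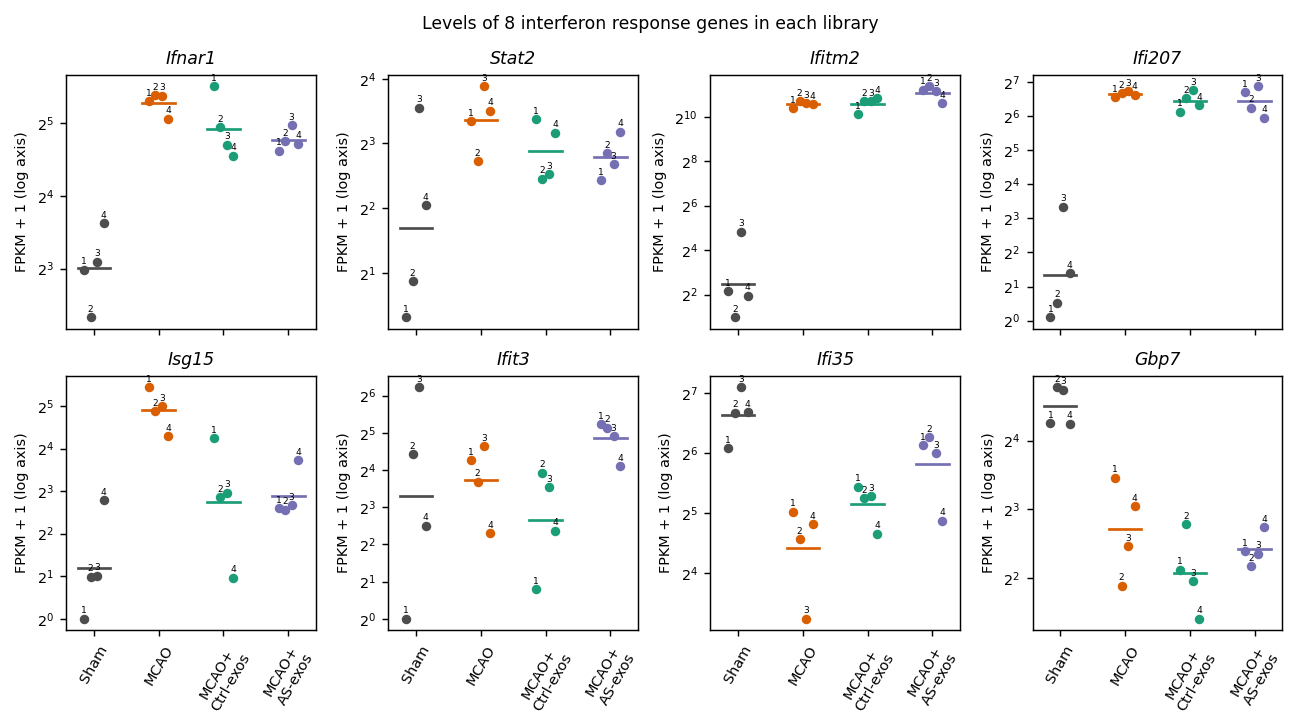
FPKM + 1 on a log2 axis for 8 genes in each of the 16 libraries, numbered by replicate, with the group mean on the log scale as a line. Ifnar1, Ifitm2, Ifi207 and Isg15 separate MCAO from Sham, Stat2 and Ifit3 have Sham replicate 3 near or above the MCAO libraries, and Ifi35 and Gbp7 are highest in Sham.

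Of the 6 genes that block virus entry, release and replication, 5 rose and 1 fell. For this block and those below, 24.5% of all tested genes rose and 14.8% fell. Ifitm2, a membrane protein that stops viruses from fusing with the cell, was 3.42, 0.97, 27.3 and 2.88 FPKM in Sham and 1345, 1669, 1573 and 1503 FPKM in MCAO. It was at 0.97 to 3.42 FPKM in 3 Sham libraries and the most abundant of the 41 genes in MCAO on average, with no overlap, and its log2 fold change was 8.09 ± 0.50 (SE; adjusted p = 1.07e-10). Ifitm3, its neighbour and close relative, was 34.05, 58.2, 467 and 78.9 FPKM in Sham and 1921, 1305, 1272 and 1154 FPKM in MCAO. Sham replicate 3 was several times above the other Sham libraries and still below every MCAO library, and the change was 3.88 ± 0.51 (SE; adjusted p = 5.30e-06), or 4.66 ± 0.30 (adjusted p = 5.67e-10) without that library. Bst2, or tetherin, which holds budding virus at the membrane, was 118 ± 48.5 FPKM (mean ± SD, n = 4) in Sham and 396 ± 108 FPKM in MCAO, a change of 1.84 ± 0.34 (SE; adjusted p = 0.000254). Rsad2, or viperin, whose product ends viral RNA chains, rose by 2.38 ± 0.68 (SE; adjusted p = 0.0094), from 0 to 2.96 to 4.92 to 14.5 FPKM. Samd9l, a restriction factor, rose by 1.99 ± 0.50 (SE; adjusted p = 0.00391), from 0.04 to 3.15 to 3.69 to 8.89 FPKM.

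Ly6e, a surface protein that limits entry of some viruses, was the gene of these 6 that fell. It read 942, 1844, 1893 and 1929 FPKM in Sham and 1099, 876, 1164 and 635 FPKM in MCAO. Sham replicate 1 lay with the MCAO libraries and the other Sham libraries lay above them, and the change was -0.79 ± 0.25 (SE; adjusted p = 0.0164). It missed the threshold without Sham replicate 3 (-0.70, adjusted p = 0.0518) and without MCAO replicate 4 (-0.61, adjusted p = 0.0649).

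Among the sensors of nucleic acid, 3 of 6 rose and 0 fell. Ifi207, of the interferon-inducible p200 family of DNA-binding proteins, was 0.07, 0.44, 9.13 and 1.61 FPKM in Sham and 92.1, 100.05, 105 and 97.5 FPKM in MCAO. The MCAO libraries were nearly level, far above Sham replicate 3, the highest of Sham, and the log2 fold change was 5.30 ± 0.47 (SE; adjusted p = 2.83e-08). Ifi204, of the same family, was 4.57, 10.9, 79.05 and 6.31 FPKM in Sham and 100.05, 108, 158 and 81.2 FPKM in MCAO. Sham replicate 3 came just under the lowest MCAO library, and the change was 2.96 ± 0.56 (SE; adjusted p = 0.000306), or 3.80 ± 0.34 (adjusted p = 5.57e-08) without it. Zbp1, which binds nucleic acid in the Z form and can start cell death, was 13.1, 9.42, 30.7 and 0 FPKM in Sham and 67.9, 53.4, 89.8 and 18.4 FPKM in MCAO. The groups overlapped through MCAO replicate 4 and Sham replicate 3, and the change was 2.62 ± 0.72 (SE; adjusted p = 0.00711). The cytosolic RNA sensors did not pass: Ifih1, or MDA5, was at -0.54 ± 0.40 (adjusted p = 0.297) and its regulator Dhx58, or LGP2, at 0.40 ± 0.47 (adjusted p = 0.523). Ifi208 was low in all groups, at 0 to 2.45 FPKM in Sham and 0.14 to 3.38 FPKM in MCAO.

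Of the 10 genes whose products act on viral RNA and translation, 4 rose, 1 fell and 5 did not pass. Oasl2, a relative of the oligoadenylate synthetases, was 0, 1, 5.34 and 3.46 FPKM in Sham and 12.9, 31.4, 27.8 and 17.3 FPKM in MCAO. All MCAO libraries lay above all Sham libraries, and the change was 3.01 ± 0.48 (SE; adjusted p = 5.45e-05). Oasl1, which in mouse cells restrains translation of Irf7, was 0, 0.03, 0.21 and 0.03 FPKM in Sham and 0.08, 6, 23.7 and 2.15 FPKM in MCAO. MCAO replicate 1 was at the Sham level, and the change of 2.21 ± 0.69 (SE; adjusted p = 0.0158) fell to 1.44 (adjusted p = 0.0665) without MCAO replicate 3. The Schlafen genes split: Slfn5 rose by 2.28 ± 0.42 (SE; adjusted p = 0.000264), Slfn2, known for holding T cells and monocytes at rest, rose by 1.32 ± 0.36 (SE; adjusted p = 0.00648), and Slfn8 had a log2 fold change of -0.95 ± 0.36 (SE; adjusted p = 0.0431). Slfn8 read 15.3, 13.6, 40.7 and 30.2 FPKM in Sham and 15.2, 6.30, 12.8 and 12.6 FPKM in MCAO. Its groups overlapped, and its call was lost without any of Sham replicate 3 or 4 or MCAO replicate 2, 3 or 4 (adjusted p = 0.0562 to 0.162).

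The 3 Ifit genes, neighbours on chromosome 19 whose products bind viral RNA and its translation factors, showed wide Sham groups. Ifit3 was 0, 20.6, 73.6 and 4.67 FPKM in Sham and 18.3, 11.8, 24.1 and 3.95 FPKM in MCAO. Sham held both the lowest and the highest value of these 8, and the log2 fold change was 0.44 ± 0.93 (SE; adjusted p = 0.736). Ifit1 was 0.50, 3.08, 16.1 and 2.90 FPKM in Sham and 9.55, 6.63, 6.05 and 1.54 FPKM in MCAO, at 0.46 ± 0.63 (SE; adjusted p = 0.596). Ifit2 was 4.27, 6.71, 16.6 and 3.57 FPKM in Sham and 3.95, 3.55, 10.4 and 1.27 FPKM in MCAO, at -0.62 ± 0.65 (SE; adjusted p = 0.473). Sham replicate 3 was above every MCAO library in all 3. Without it the log2 fold changes were 1.42 ± 0.84 (adjusted p = 0.199) for Ifit3, 1.10 ± 0.58 (adjusted p = 0.152) for Ifit1 and -0.22 ± 0.68 (adjusted p = 0.83) for Ifit2, none past the threshold. Oas1a, an oligoadenylate synthetase that starts RNA decay, and Eif2ak2, the kinase PKR that stops translation, were at 1.13 ± 0.64 (SE; adjusted p = 0.172) and 0.29 ± 0.42 (SE; adjusted p = 0.617). Oas1a passed as higher without Sham replicate 3, at 1.84 ± 0.55 (adjusted p = 0.0145).

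In the ISG15 system and the related modifiers, Isg15 rose, Herc6 fell and 4 genes did not pass. Isg15, a ubiquitin-like protein joined to other proteins, was 0, 0.98, 1.02 and 5.90 FPKM in Sham and 42.3, 28.6, 31.03 and 18.5 FPKM in MCAO. The groups stood apart, and here Sham replicate 4, not replicate 3, was the highest of Sham. The log2 fold change was 3.71 ± 0.60 (SE; adjusted p = 6.40e-05). Herc6, the mouse ligase that joins Isg15 to its targets, was 5.79, 7.41, 6.66 and 5.30 FPKM in Sham and 4.78, 0.90, 4.57 and 1.62 FPKM in MCAO. Groups did not overlap, the change was -1.03 ± 0.39 (SE; adjusted p = 0.0453), and the call was lost in 6 of 8 fits that left out 1 library (adjusted p up to 0.167, without MCAO replicate 2). Usp18, which removes Isg15 and blocks the receptor, was 6.76, 14.3, 24.2 and 9.04 FPKM in Sham and 5.17, 16.5, 8.95 and 1.10 FPKM in MCAO, overlapping groups with a change of -0.93 ± 0.73 (SE; adjusted p = 0.329). Trim30a, Parp9 and Parp14, the latter pair ADP-ribosyltransferases, had log2 fold changes of -0.16, -0.28 and 0.05 and adjusted p of 0.686, 0.629 and 0.924.

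The guanylate-binding proteins, GTPases that coat and break vacuoles holding pathogens, differed although their genes lie together on chromosome 3. Gbp2 rose by 2.08 ± 0.59 (SE; adjusted p = 0.00879), from 0.21, 0.85, 5.46 and 0 FPKM in Sham to 7.72, 2.97, 19.9 and 5.45 FPKM in MCAO, groups that overlapped through Sham replicate 3. Gbp3 did not pass, at -1.03 ± 0.57 (SE; adjusted p = 0.161). Gbp7 was 18.1, 26.3, 25.7 and 17.9 FPKM in Sham and 10, 2.71, 4.52 and 7.24 FPKM in MCAO, with no overlap and a change of -1.79 ± 0.38 (SE; adjusted p = 0.000926). Ifi35, which pairs with Nmi, fell most of the 41 genes: it was 66.7, 101, 135 and 101 FPKM in Sham and 31.4, 22.6, 8.40 and 27.1 FPKM in MCAO. All MCAO libraries were below all Sham libraries, and the change was -2.22 ± 0.38 (SE; adjusted p = 0.000112). Xaf1, known for opposing the apoptosis inhibitor XIAP, was 66.6, 40.3, 93.9 and 38.1 FPKM in Sham and 27.2, 27.2, 12.4 and 9.80 FPKM in MCAO, again apart, with a change of -1.62 ± 0.41 (SE; adjusted p = 0.00371).

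Ifi27l2a, Rtp4 and Ifi44 complete the list, and each had Sham replicate 3 far above its partners. Ifi27l2a, a small membrane protein of mitochondria, was 217, 131, 1479 and 44.05 FPKM in Sham and 944, 604, 945 and 476 FPKM in MCAO. It just missed the threshold at 1.77 ± 0.70 (SE; adjusted p = 0.0507) and was 2.71 ± 0.51 (adjusted p = 0.000396) without Sham replicate 3. Rtp4, a chaperone of membrane receptors, was 64.5, 105, 321 and 71.7 FPKM in Sham and 97.2, 62.1, 113 and 12.1 FPKM in MCAO, at -1.03 ± 0.75 (SE; adjusted p = 0.288). Ifi44 was listed at 0 in 3 Sham libraries and at 8.65 FPKM in replicate 3, and at 0.11, 0.43, 1.03 and 0.02 FPKM in MCAO. In all, 11 of the 41 genes had every MCAO library above every Sham library (21.8% of all tested genes did) and 4 had every one below (12% of all tested genes).

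Several of these genes are close copies of a neighbour: Ifitm2 and Ifitm3, the Ifit, Slfn, Gbp, Oas and p200 genes. How reads shared between copies were assigned is not stated in the labels or notes used here, so the split between them is uncertain. Quantile normalization moved the median of all tested genes from 0.25 to -0.03 and that of the 41 genes from 0.44 to 0.10, and 16 genes rose and 7 fell under it.

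**Figure D5:**
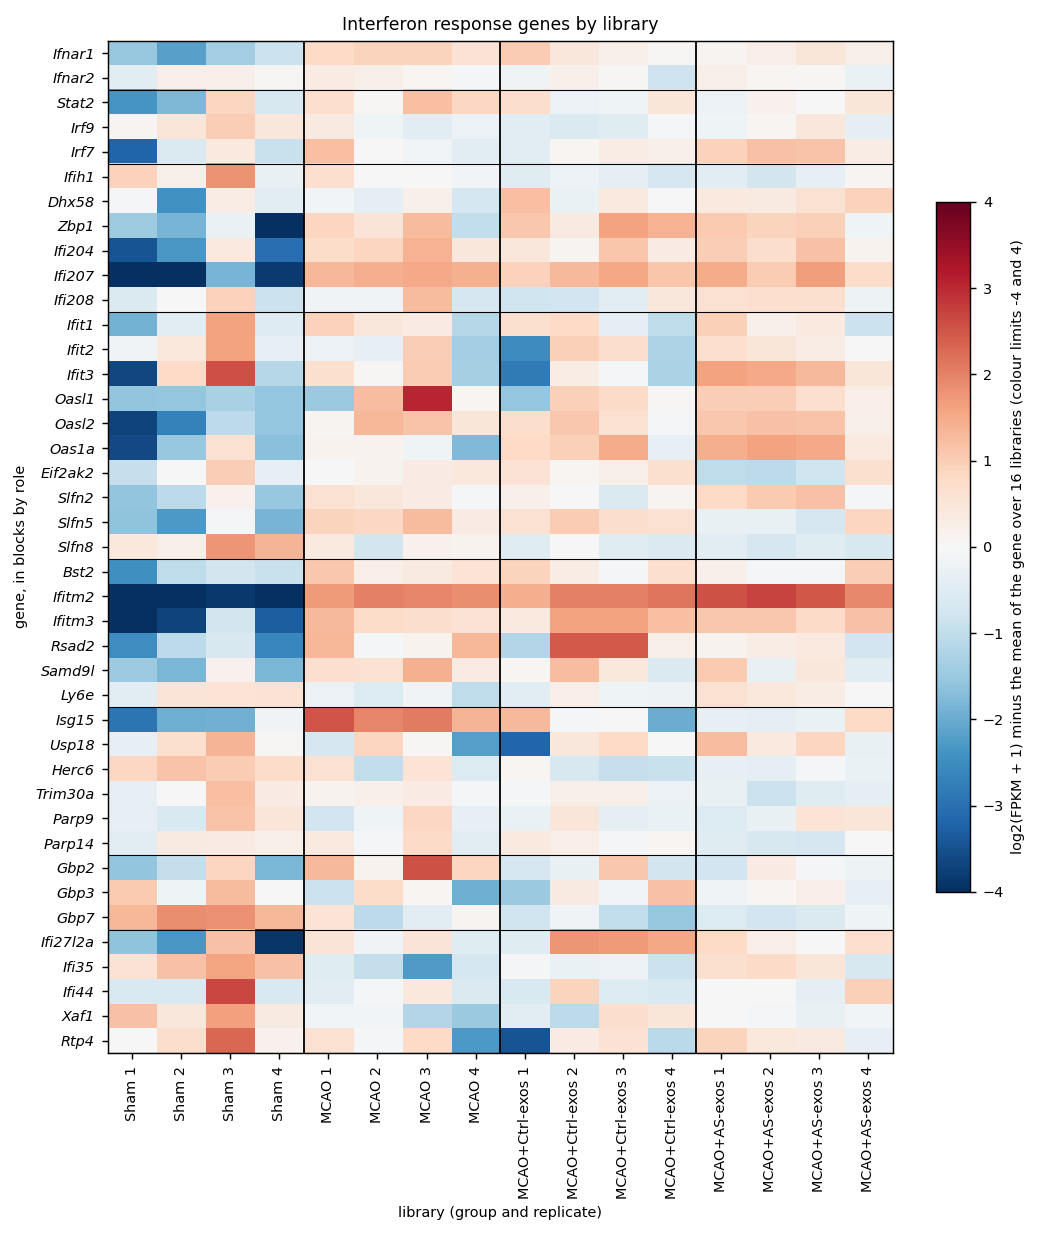
Log2(FPKM + 1) of the 41 genes (rows, in blocks by role) in the 16 libraries (columns), as the difference from each gene's mean over all libraries, with colour limits of -4 and 4. Ifitm2, Ifitm3 and Ifi207 are low in Sham and high in the libraries of the 3 stroke groups. Ifi204 is alike except in Sham replicate 3 (79.05 FPKM), which lies above some libraries of the exosome groups. The Sham replicate 3 column is redder than the other Sham columns for Ifit3, Ifi44, Rtp4 and most other rows.

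The exosome groups were compared with the same Sham libraries, so their values are given beside those of MCAO and not as separate evidence. In MCAO+Ctrl-exos against Sham 15 of the 41 rose (36.6%, beside 22.1% of all tested genes) and 6 fell (14.6%, beside 16.6%). In MCAO+AS-exos against Sham 17 rose (41.5%, beside 20.7%) and 4 fell (9.76%, beside 19.1%). The medians were 0.44 and 0.71 over the 41 genes, beside 0.12 and 0.03 over all. Bst2, Ifi204, Ifi207, Ifitm2, Ifitm3, Ifnar1, Isg15, Oasl2, Samd9l, Slfn2, Slfn5 and Zbp1 rose in all 3 stroke groups, Gbp7, Herc6 and Slfn8 fell in all 3, and 12 genes, the Ifit genes among them, passed in none. Without Sham replicate 3, Ifit3 passed as higher in MCAO+AS-exos, at 2.54 ± 0.84 (SE; adjusted p = 0.0245).

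Ifitm2 was 1116, 1650.0, 1667 and 1817 FPKM in MCAO+Ctrl-exos and 2383, 2666, 2274 and 1560.2 FPKM in MCAO+AS-exos, with log2 fold changes against Sham of 8.11 ± 0.50 (adjusted p = 1.04e-10) and 8.62 ± 0.50 (adjusted p = 3.97e-11). Ifi207 was 68.6, 90.4, 106 and 78.01 FPKM and 102, 74.4, 116 and 60.9 FPKM in the same groups. Ifitm3 was 1026, 2385, 2364 and 1800.1 FPKM and 1632, 1628, 1336 and 1746 FPKM. All of these libraries lay above all Sham libraries. Ifi204 was 81.97, 63.9, 129.6 and 75.5 FPKM and 119, 98.2, 135 and 65.8 FPKM, and in both groups its lowest library fell below Sham replicate 3. Oasl2 was 20, 26.7, 18.8 and 11.4 FPKM and 26.2, 28.5, 27.4 and 14.2 FPKM, above every Sham value. Zbp1 was 79.5, 48.2, 114 and 99.2 FPKM and 76.99, 69.6, 72.04 and 32.7 FPKM, with every library above Sham replicate 3, and its change against Sham was 3.32 ± 0.72 (SE; adjusted p = 0.00113) in MCAO+Ctrl-exos and 2.88 ± 0.72 (SE; adjusted p = 0.00365) in MCAO+AS-exos.

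Some calls differed between the 3 comparisons with Sham, which does not test the stroke groups against each other. Irf7 was 13.03, 19.6, 22.5 and 21.2 FPKM in MCAO+Ctrl-exos and 35.4, 42.9, 41.4 and 22.7 FPKM in MCAO+AS-exos, and passed in the latter, at 1.96 ± 0.54 (SE; adjusted p = 0.00758). Ifi27l2a was 469, 2234, 2138 and 1953 FPKM and 1141, 797, 664 and 1061 FPKM, at 2.79 ± 0.70 (SE; adjusted p = 0.00352) and 2.10 ± 0.70 (SE; adjusted p = 0.0223), and Oas1a passed in both, at 2.27 ± 0.64 (SE; adjusted p = 0.00814) and 2.78 ± 0.64 (SE; adjusted p = 0.00188). Oasl1 was 0.03, 4.82, 4.05 and 2.08 FPKM in MCAO+Ctrl-exos and 4.95, 4.97, 3.78 and 2.61 FPKM in MCAO+AS-exos, and rose in the latter, at 2.22 ± 0.69 (SE; adjusted p = 0.0152). Dhx58 also rose in MCAO+AS-exos, at 1.23 ± 0.47 (SE; adjusted p = 0.0454), and Rsad2 in MCAO+Ctrl-exos, at 2.68 ± 0.68 (SE; adjusted p = 0.00404).

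Among the genes that fell, Gbp7 was 3.36, 5.91, 2.88 and 1.66 FPKM in MCAO+Ctrl-exos and 4.26, 3.52, 4.13 and 5.70 FPKM in MCAO+AS-exos, at -2.43 ± 0.38 (SE; adjusted p = 3.93e-05) and -2.08 ± 0.38 (SE; adjusted p = 0.000225). Slfn8 was 7.74, 11.4, 7.84 and 7.21 FPKM and 8.14, 6.67, 7.77 and 6.88 FPKM, at -1.32 ± 0.36 (SE; adjusted p = 0.00658) and -1.50 ± 0.36 (SE; adjusted p = 0.00269). Herc6 was 3, 1.43, 1.01 and 1.04 FPKM and 2.04, 1.93, 2.58 and 2.18 FPKM, at -1.53 ± 0.39 (SE; adjusted p = 0.00448) and -1.19 ± 0.39 (SE; adjusted p = 0.0219). For all 3 the exosome libraries lay below every Sham library. Ifi35, Irf9 and Ifih1 fell in MCAO+Ctrl-exos alone of the exosome groups. Irf9 was 19.6, 17.9, 19.2 and 26.2 FPKM there, at -0.88 ± 0.28 (SE; adjusted p = 0.0184), and 24.01, 28.4, 37.7 and 20.9 FPKM in MCAO+AS-exos. Ifih1 was 4.82, 5.92, 5.41 and 4.13 FPKM in MCAO+Ctrl-exos, at -1.11 ± 0.40 (SE; adjusted p = 0.0325), against 14.5, 8.74, 27.7 and 5.63 FPKM in Sham. Trim30a fell in MCAO+AS-exos, where it was 47.2, 31.6, 40.8 and 44.7 FPKM beside 46.2, 58.5, 134 and 73.2 FPKM in Sham, at -0.81 ± 0.28 (SE; adjusted p = 0.0285). Without Sham replicate 3 it was at -0.51 (adjusted p = 0.128) and did not pass.

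Several calls against Sham passed narrowly and were lost in some of the 8 fits that each left out 1 library. In MCAO+Ctrl-exos against Sham, Isg15 lost its call in 6 (log2 fold change 1.06 to 2.15 over the 8 fits, adjusted p up to 0.176) and Slfn2 in 6 (0.73 to 1.31, up to 0.139). Ifih1 lost it in 5 (-1.43 to -0.73, up to 0.143), Samd9l in 3 (1.21 to 1.99, up to 0.0848) and Irf9 in 2 (-1.02 to -0.72, up to 0.0696). In MCAO+AS-exos against Sham, Dhx58 lost it in 6 (0.64 to 1.55, up to 0.188) and Samd9l in 5 (1.15 to 1.90, up to 0.108). Isg15 lost it in 4 (1.29 to 2.22, up to 0.109), Ifi27l2a in 4 (1.36 to 3.04, up to 0.0946), and Trim30a and Herc6 in 3 each. Slfn5 lost it in 2, without MCAO+AS-exos replicate 4 (1.03, adjusted p = 0.061) and without Sham replicate 2 (1.06, adjusted p = 0.0607). Without MCAO+AS-exos replicate 2, 2 genes fell in place of 4.

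Without Sham replicate 3, 17 genes rose (20.2% of all tested genes did) and 4 fell (14.8% of all) in MCAO+Ctrl-exos. Isg15, Irf9 and Ifih1 no longer passed there, and Dhx58, Irf7 and Stat2 joined the risers. In MCAO+AS-exos 19 rose (18.7% of all) and 3 fell (16.7% of all), Isg15 and Trim30a no longer passed, and Ifit3, Rsad2 and Stat2 joined the risers. Scaling moved the balance for MCAO+Ctrl-exos with all libraries, with 13 higher and 8 lower under quantile normalization and 13 higher and 9 lower when totals were made equal.

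Control exosomes were set against no exosomes after stroke by comparing MCAO+Ctrl-exos with MCAO. Of the 41 genes, 0 passed the limma test, beside 0.0738% of all tested genes, and 2 had an unadjusted p below 0.05 (10.9% of all did). The median log2 fold change was -0.14 over the 41 genes and -0.14 over all. Isg15 had the smallest p: the 4 libraries read 17.9, 6.21, 6.77 and 0.95 FPKM, all below the 42.3, 28.6, 31.03 and 18.5 FPKM of MCAO, at -2.15 ± 0.60 (SE; adjusted p = 0.18). Without MCAO+Ctrl-exos replicate 1, its highest library, it passed as lower (-2.65, adjusted p = 0.0437). Gbp2 read 1.25, 1.92, 6.59 and 1.13 FPKM beside 7.72, 2.97, 19.9 and 5.45 FPKM in MCAO, overlapping groups, at -1.36 ± 0.59 (SE; adjusted p = 0.406). Ifi35 read 42.4, 36.9, 37.8 and 24.2 FPKM, at 0.75 ± 0.38 (SE; adjusted p = 0.486), and Oas1a 53.9, 59.6, 86.5 and 23.8 FPKM beside 33.2, 33.2, 26.8 and 8.31 FPKM, at 1.14 ± 0.64 (SE; adjusted p = 0.536). Both overlapped with MCAO.

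MCAO+AS-exos and MCAO+Ctrl-exos differ in the exosomes given. Here too 0 of the 41 genes passed the limma test, beside 0.286% of all tested genes, and 3 had an unadjusted p below 0.05 (19.6% of all did). The medians were 0.16 over the 41 genes and -0.08 over all. Ifit3 had the smallest p, with 36.6, 34.2, 29.2 and 16.2 FPKM in MCAO+AS-exos and 0.73, 14.2, 10.6 and 4.17 FPKM in MCAO+Ctrl-exos. Every MCAO+AS-exos library lay above every MCAO+Ctrl-exos library, replicate 4 by little, and the difference was 2.19 ± 0.93 (SE; adjusted p = 0.205). Slfn2 was 122, 147, 160.5 and 65.9 FPKM against 80.2, 70.3, 46.6 and 74.8 FPKM, at 0.81 ± 0.36 (SE; adjusted p = 0.221). The first 3 MCAO+AS-exos libraries lay above all others and replicate 4 lay among the MCAO+Ctrl-exos values. Eif2ak2 was 3.08, 3.05, 3.74 and 11.9 FPKM against 11.3, 7.81, 8.78 and 11.8 FPKM, at -0.93 ± 0.42 (SE; adjusted p = 0.231), and Slfn5 12.6, 12.6, 9.65 and 29.4 FPKM against 24.8, 32.9, 26.5 and 24.6 FPKM, at -0.84 ± 0.42 (SE; adjusted p = 0.28). In both, replicates 1 to 3 were below every MCAO+Ctrl-exos library and replicate 4 was not. Without MCAO+AS-exos replicate 4, Eif2ak2 passed as lower, at -1.33 ± 0.38 (adjusted p = 0.0312), and Slfn2 and Slfn5 did not, at 1.08 ± 0.35 (adjusted p = 0.0542) and -1.16 ± 0.42 (adjusted p = 0.0806). With weights for the quality of each library, 6 genes rose (11.3% of all tested genes did) and 4 fell (18.8% of all), Ifit3, Slfn2, Eif2ak2 and Slfn5 among them.

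MCAO+AS-exos against MCAO shares its libraries with both comparisons above. A single gene of the 41 rose, Ifi35 (2.44%, beside 1.06% of all tested genes), and 0 fell, beside 5.08% of all. An unadjusted p below 0.05 was found for 7 (25.7% of all). Ifi35 was 69.2, 75.6, 62.9 and 28.2 FPKM in MCAO+AS-exos and 31.4, 22.6, 8.40 and 27.1 FPKM in MCAO, with replicate 4 among the MCAO values and the other 3 above them all, at 1.41 ± 0.38 (SE; adjusted p = 0.0387). Against Sham, where it was 66.7 to 135 FPKM, its MCAO+AS-exos level was -0.82 ± 0.38 (adjusted p = 0.0954). The call was lost when any 1 library other than MCAO+AS-exos replicate 4 was left out (adjusted p = 0.0615 to 0.147), and held without that library, at 1.72 ± 0.37 (adjusted p = 0.00421).

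Isg15 was 5.03, 4.91, 5.38 and 12.2 FPKM in MCAO+AS-exos, below every MCAO library, at -2.01 ± 0.60 (SE; adjusted p = 0.0509). Ly6e was 1949, 1709.9, 1602 and 1272 FPKM, above every MCAO library and beside 942 to 1929 FPKM in Sham, at 0.81 ± 0.25 (SE; adjusted p = 0.0544). Oas1a was 84.7, 94.1, 88.4 and 39.8 FPKM, also above every MCAO library, at 1.65 ± 0.64 (SE; adjusted p = 0.113). Without MCAO+AS-exos replicate 4, 2 genes rose (3.89% of all tested genes did) and 3 fell (14.8% of all). Ly6e joined Ifi35 at 0.93 ± 0.26 (adjusted p = 0.0199), and Isg15, Eif2ak2 and Slfn5 passed as lower, at -2.29 ± 0.65 (adjusted p = 0.0212), -1.18 ± 0.38 (adjusted p = 0.0397) and -1.25 ± 0.42 (adjusted p = 0.0457). When totals were made equal, Isg15 passed as lower with all libraries too, giving 1 gene higher and 1 lower. Weights for library quality gave 4 higher (10.5% of all tested genes) and 5 lower (26% of all). Of the monocyte and macrophage markers, Lyz2 and Chil3 were higher in MCAO+AS-exos replicates 1 to 3 than in any other library and replicate 4 was near the MCAO range, while Plac8, Fn1, Ly6c2 and Ccr2 were not highest in those 3. The part of these markers in the differences was not tested.

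The remaining libraries of the genes with the smallest p put these differences beside Sham. Slfn5, of the Schlafen family, was 4.58, 2.40, 15.4 and 3.60 FPKM in Sham and 30.2, 29.2, 39.5 and 20.02 FPKM in MCAO, groups that stood apart, and MCAO+AS-exos replicates 1 to 3 came below every MCAO library. Eif2ak2, or PKR, the kinase that halts translation when it meets double-stranded RNA, was 3.41, 7.40, 15.5 and 5.54 FPKM in Sham and 7.33, 8.17, 9.45 and 10.1 FPKM in MCAO. Its Sham range enclosed that of MCAO, and MCAO+AS-exos replicates 1 to 3 were below every MCAO library. Slfn2 was 22.7, 33.4, 79.5 and 23.6 FPKM in Sham and 108, 95.5, 87.2 and 66.1 FPKM in MCAO, and Sham replicate 3 overlapped with MCAO replicate 4. Oas1a, an oligoadenylate synthetase, was 1.56, 10.1, 46.4 and 8.91 FPKM in Sham, where replicate 3 was above every MCAO library. Ly6e was 969, 1535, 1137 and 1128 FPKM in MCAO+Ctrl-exos, within the Sham range. Gbp2 was 1.10, 3.54, 2.43 and 2.13 FPKM in MCAO+AS-exos, where 1 library exceeded the lowest of MCAO.

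Stat2 was 9.35, 4.49, 4.74 and 7.96 FPKM in MCAO+Ctrl-exos and 4.40, 6.20, 5.40 and 8.06 FPKM in MCAO+AS-exos, all below Sham replicate 3 and above the other Sham libraries. Xaf1 was 21.7, 13.8, 47.9 and 41.6 FPKM and 29.3, 27.7, 23.5 and 26.8 FPKM in these groups, and its MCAO+AS-exos libraries were nearly level below every Sham library. Ifih1 was 12.02, 7.05, 7.07 and 6.64 FPKM in MCAO and 5.20, 3.94, 5.55 and 7.93 FPKM in MCAO+AS-exos, both overlapping with Sham. Trim30a, a regulator of Toll-like receptor signalling, was 64.2, 65.8, 72.4 and 55.9 FPKM in MCAO and 55.02, 67.4, 66.4 and 48.6 FPKM in MCAO+Ctrl-exos, all above the MCAO+AS-exos values.

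The spread between libraries differed by group. The SD of log2(FPKM + 1) over the 4 libraries had a median over the 41 genes of 0.91 in Sham (0.57 over all tested genes), 0.51 in MCAO (0.49), 0.48 in MCAO+Ctrl-exos (0.49) and 0.42 in MCAO+AS-exos (0.40). Without Sham replicate 3 the Sham median was 0.56 for the 41 genes and 0.56 for all. Without replicate 4 the MCAO+AS-exos median was 0.17 and 0.22. By the SD within groups, pooled over the 4, the widest were Ifit3, Rtp4, Zbp1 and Usp18. Ifnar2, Irf9, Ifnar1 and Ly6e were the narrowest of those above the middle level of all tested genes.

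Rtp4 read 4.95, 79.96, 94.8 and 29.5 FPKM in MCAO+Ctrl-exos and 119, 86.6, 81.97 and 51.01 FPKM in MCAO+AS-exos, so that single libraries ranged from 4.95 FPKM to the 321 FPKM of Sham replicate 3. Usp18 read 0.07, 12.4, 15.7 and 8.73 FPKM and 22.03, 11.7, 16.8 and 6.85 FPKM in the same groups. MCAO+Ctrl-exos replicate 1 was the lowest of its group in both, and also in Ifit2, Ifit3, Oasl1 and Rsad2. Over the 41 genes it was the lowest in 14 (34.1%, beside 21.1% of all tested genes) and the highest in 9 (22%, beside 38.1%). Replicate 4 of that group was also the lowest in 14 (34.1%, beside 28.3%). Sham replicate 1 was the lowest of its group in 22 of the 41 genes (53.7%, beside 31.7% of all tested genes), and MCAO replicate 4 in 26 (63.4%, beside 29.8%).

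The genes moved together within groups mainly through Sham replicate 3. Deviations from the group means correlated between the 41 genes at a mean r of 0.32 over the 16 libraries, and at 0.12 without that library. Outside the list, the genes most like it by mean r included Ms4a4c (0.54), Ifi211 (0.52), Cmpk2 (0.52), Anxa2 (0.51), Inpp5f (0.51), Zfp37 (0.51) and Plac8 (0.49), beside a median of 0.00 over all other tested genes. Without Sham replicate 3 these values were 0.13 to 0.30. These are descriptions over 16 points that share library preparation and total. Cmpk2, a gene next to Rsad2 that supplies nucleotides, was 0, 0.37, 7.87 and 0 FPKM in Sham.

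Genes that make, carry and restrain the signal were read from lists chosen beside the 41 genes. Of 21 interferon genes listed, 2 were in the table, Ifna1 and Ifnz, and neither exceeded 0.11 FPKM in any library. Of 11 kinases, STATs, receptors for interferon gamma and brakes, 4 rose in MCAO against Sham and 1 fell. Of all tested genes, 24.5% rose and 14.8% fell. Tyk2, the kinase held by Ifnar1, rose by 1.58 ± 0.45 (SE; adjusted p = 0.00916), from 3.51, 4.37, 0.64 and 2.93 FPKM to 11.5, 17.4, 6.61 and 6.19 FPKM. Jak2 and Stat3 rose by 1.48 ± 0.36 (SE; adjusted p = 0.00302) and 2.09 ± 0.31 (SE; adjusted p = 2.44e-05). Jak1, the kinase held by Ifnar2, was at 0.05 ± 0.28 (SE; adjusted p = 0.906). Ifngr1, a subunit of the interferon gamma receptor, fell by 1.73 ± 0.29 (adjusted p = 8.56e-05).

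Of 16 tested genes of sensing and induction, 3 rose (24.5% of all tested genes did) and 6 fell (14.8% of all). Tlr3, the endosomal sensor of double-stranded RNA, was 37.96, 27.2, 39.1 and 29.4 FPKM in Sham and 3.20, 1.58, 1.59 and 0.39 FPKM in MCAO, at -3.77 ± 0.48 (SE; adjusted p = 3.42e-06). Tmem173, or STING, which passes on DNA signals, was 185, 325, 198 and 309.6 FPKM and 61.4, 43.5, 21.4 and 30.7 FPKM, at -2.72 ± 0.31 (SE; adjusted p = 8.04e-07). The groups did not overlap in either. Tlr7, Aim2, Cgas and Trex1 also fell, with log2 fold changes of -1.85, -1.48, -1.21 and -1.06. Ikbke, a kinase that activates interferon regulatory factors, rose by 4.13 ± 0.51 (SE; adjusted p = 2.53e-06), and Samhd1 and Irf5 rose by 1.53 and 1.08.

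Of 45 further interferon-stimulated genes, 16 rose in MCAO against Sham (24.5% of all tested genes did) and 8 fell (14.8% of all). Ifitm1, next to Ifitm2 and Ifitm3, was 0.78, 0.68, 1.03 and 2.15 FPKM in Sham and 547, 1680.0, 751 and 1613 FPKM in MCAO, at 8.94 ± 0.33 (SE; adjusted p = 3.73e-14). Ifitm6 rose by 6.33 ± 0.59, and the p200 genes Ifi211, Mndal, Ifi203 and Ifi213 by 4.39, 4.28, 3.60 and 2.14. Oas2 and Oas3 rose by 2.13 and 1.91. Cxcl10, a chemokine that draws T cells, fell by 3.72 ± 1.02 (adjusted p = 0.00694), from 32.1, 66.1, 252 and 26.4 FPKM to 23.3, 11.3, 0 and 0.68 FPKM, and Nmi, the partner of Ifi35, was at -1.56 ± 0.35 (SE; adjusted p = 0.00139). In MCAO+AS-exos against MCAO, Nmi and Ifngr1 rose, at 1.25 ± 0.35 (SE; adjusted p = 0.0415) and 1.06 ± 0.29 (SE; adjusted p = 0.0403). Ptpn11, Irf2bp1 and Irf2bp2 fell there, with log2 fold changes of -1.35, -2.03 and -1.51. Of all tested genes, 1.06% rose and 5.08% fell. These calls were lost without MCAO+AS-exos replicate 2 or without replicate 3, where 0 of all tested genes passed. Replicate 4 lay within the MCAO range for Ifngr1 (133 FPKM), Ptpn11 (7.65 FPKM), Irf2bp1 (8.40 FPKM) and Irf2bp2 (83.7 FPKM). Nmi was 47.1, 49.6, 39.4 and 55.97 FPKM in MCAO+AS-exos and 18.6, 29.3, 11.4 and 22.5 FPKM in MCAO. Of 7 tested genes chiefly induced by interferon gamma, Ciita and Ifi47 rose after stroke (2.87 and 2.74) and Irgm2 and Igtp fell (-3.03 and -1.71).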

How the data were processed

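RNA sequencing values of 16 libraries in 4 groups were used, grouped by sample title. The submitters' processing notes name HISAT2, Bowtie2, RSEM 1.3.1 and the mouse build GRCm39.p6, but give no role for the tools and no annotation or filters. The deposited values were read as FPKM, made by the authors and scaled by transcript length and library. The unit is an inference, because RSEM is named and totals differ between libraries. They could also be TPM cut to fewer genes. The files hold no counts, so depth per library, and the precision it gives, are unknown. The table of the series and the files of single libraries held the same values.

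The scale was log2(FPKM + 1). A gene was tested if 4 or more libraries reached 1 FPKM, which 10846 genes did and 3136 did not. Every comparison came, two-sided, from a single limma 3.58.1 model in R 4.3.3 with 4 group means over all 16 libraries and no replicate block, using lmFit and a robust eBayes with a mean trend. P-values were adjusted by Benjamini-Hochberg over these 10846 genes, with 0.05 as the threshold. SE are those of the moderated fit. The model was tested on simulated data. The 42 genes, the pathway lists and the markers were chosen with earlier results of these data known. Values in every library are given for the receptor and signalling genes, for the 6 called genes of largest change per direction or, where fewer than 3 were called, the 4 with the smallest p, and for the 4 widest and 4 narrowest genes within groups. The values given for other genes were chosen after they were seen. Genes most like the 41 are the 8 with the highest mean Pearson correlation of residuals, leaving out predicted models. A gene among these and a gene of the pathway lists are not reported here.

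Alternatives were a pseudocount of 0.1, testing unfiltered genes, raising the minimum to 5 FPKM, quantile normalization, no trend, a replicate block, library weights, a fit of only the 8 libraries compared and leaving out each library in turn; scaling of totals was added after the data were seen. Promoter windows came from RefSeq on GRCm38.p6, another build than that of the authors, and no coordinates were moved between builds. Tables were handled with Python 3.11.15, pandas 2.3.3 and numpy 2.4.6, and figures drawn with matplotlib 3.10.9.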

Additional observations from a re-analysis of the deposited data

Results flagged for a closer look

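In 15 of 164 groups of 4 libraries, 1 library lay far from the other 3 on the log2 scale by Dixon's ratio, where chance flags about 1 in 20, or 8.2. MCAO+AS-exos replicate 4 was the far library in 6 of the 15. It read 12.24 FPKM for Isg15 against 4.91 to 5.38 in its partners and 11.95 FPKM for Eif2ak2 against 3.05 to 3.74. It was low for Oasl2 (14.16 FPKM against 26.2 to 28.5), Oas1a (39.76 FPKM against 84.7 to 94.1), Zbp1 (32.71 FPKM against 69.6 to 77.0) and Ifi208 (0.57 FPKM against 1.76 to 1.87).

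Sham replicate 3 was far above its partners for Ifi44, at 8.65 FPKM against 0 in all 3, and for Oasl1, at 0.21 FPKM against 0 to 0.03. Sham replicate 1 was far below for Bst2, at 47.29 FPKM against 128 to 156, and for Ly6e, at 942.39 FPKM against 1844 to 1929. In MCAO, replicate 4 was low for Oas1a (8.31 FPKM against 26.8 to 33.2) and replicate 1 high for Ifih1 (12.02 FPKM against 6.64 to 7.07). In MCAO+Ctrl-exos, replicate 1 was low for Ifi27l2a (468.62 FPKM against 1953 to 2234), and replicate 2 was high for Ifi44 (1.79 FPKM against 0 to 0.03) and Parp9 (15.04 FPKM against 7.77 to 8.56).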

How the results depend on the processing

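Among the alternatives run, no called gene changed direction. For MCAO against Sham, leaving out 1 library gave 15 to 19 genes higher and 3 to 7 lower, and the alternatives with all libraries gave 15 to 17 higher and 4 to 7 lower. For MCAO+Ctrl-exos against MCAO, library weights gave 1 lower, and leaving out 1 library 0 to 1 lower. For MCAO+AS-exos against MCAO+Ctrl-exos, library weights gave 6 higher and 4 lower, and leaving out 1 library 0 to 1 lower. For MCAO+AS-exos against MCAO, library weights gave 4 higher and 5 lower, a minimum of 5 FPKM 2 higher and 1 lower, a fit of only the 8 libraries compared 0 higher and 1 lower, scaling of totals 1 lower, and leaving out 1 library 0 to 2 higher and 0 to 3 lower. For MCAO+AS-exos against Sham, library weights gave 8 lower, and leaving out 1 library 12 to 19 higher and 2 to 6 lower. For MCAO+Ctrl-exos against Sham, leaving out 1 library gave 12 to 17 higher and 4 to 7 lower. The cause was not tested. Of single genes, only part of the values were tallied. In that tally 1053 kept their side of the threshold with all libraries, 38 lost it and 20 gained it. When 1 library was left out, 906 kept it, 72 lost it and 14 gained it. The tally does not hold every gained call.

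Replicate numbers showed no pairing: between libraries of the same number, residuals had correlations of -0.148 to 0.0923. With a replicate block, 17 genes rose and 4 fell in MCAO against Sham, 14 and 7 in MCAO+Ctrl-exos against Sham, 18 and 4 in MCAO+AS-exos against Sham, and 0 and 0 in each of the 3 comparisons between stroke groups, where Ifi35 in MCAO+AS-exos against MCAO had an adjusted p of 0.053.

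Without counts, the error of low values, such as those of Ifi44, Ifi208 and Oasl1, cannot be given.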
